A study of Mus musculus with 2 samples.

Results

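Amino acid transporters are membrane proteins that carry amino acids into and out of cells and between the cytosol and the lysosome. The members were taken as the protein-coding genes whose symbol belongs to the solute carrier families Slc1, Slc3, Slc6, Slc7, Slc36, Slc38 or Slc43, which gave 64 of 21474 protein-coding genes in the gene tables. Of these, 62 were placed in 18 classes, called transport systems here, by their known substrates or, for heavy chains and carriers of poorly known role, by family. The 2 others were Slc7a6os, a gene on the opposite strand beside Slc7a6 that encodes no carrier, and Slc6a21. They were read in total RNA above 200 nt from the liver of healthy B6NCrl mouse embryos at embryonic day 16.5. The data hold 1 group of 2 libraries, replicate 1 and replicate 2, each from livers pooled over male and female embryos. The labels state 41 embryos for replicate 2 and no number for replicate 1, and they give both libraries the same donor identifier. No treatment, mutation or second condition is named, so the values describe levels in this tissue, and no test between conditions was possible. How far the spread between these pools is technical was not tested.

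Transport systems are classes of carriers named for substrate and ion dependence. System L exchanges or passes large neutral amino acids such as leucine without sodium, system A takes up small neutral amino acids with sodium, system N carries glutamine and histidine, system ASC exchanges alanine, serine, cysteine and glutamine, and system y+ carries arginine and lysine. Several carriers of the Slc7 family are light chains that reach the cell surface only when bound to a heavy chain of the Slc3 family. The fetal liver at this stage holds hepatocytes together with large numbers of red cell precursors, and both need amino acids, for plasma proteins and for haemoglobin.

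Levels are given as TPM (a gene's share of all transcripts of a library, corrected for length, so that genes can be compared), as mean ± SD of the 2 libraries (n = 2) or as the 2 values. Libraries held 44477766 expected counts in replicate 1 and 48820712 in replicate 2. All 8 hepatocyte markers and all 8 red cell markers looked at were above 1 TPM in both libraries, with summed levels of 29365 and 31362 TPM for hepatocytes and 3980 and 4045 TPM for red cells, in replicate 1 and replicate 2. In a whole organ, fewer cells of a type and less RNA per cell cannot be told apart.

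Of the 64 members, 34 reached 1 TPM in each library, a share of 53.1% beside 52.2% of all protein-coding genes. Another 2, Slc6a19 and Slc1a2, passed that level in replicate 2 alone, and 28 were below it in both. The members summed to 902 TPM in replicate 1 and 986 TPM in replicate 2, or 0.107% ± 0.00738 (SD, n = 2) of the TPM of protein-coding genes. The median of the 34 was 8.22 ± 0.757 TPM (SD, n = 2), against 10.9 ± 0.170 TPM for all protein-coding genes that passed the same level. A few carriers held most of the total: the 3 highest held 37.8% ± 0.365 and the 10 highest 76.9% ± 0.0587 of the members' TPM (SD, n = 2). For scale, 6 of 12 glucose transporter genes of the Slc2a family passed 1 TPM and summed to 358 and 364 TPM, most of it from Slc2a1, at 284 and 286 TPM. The monocarboxylate carriers of the Slc16a family, with 8 of 14 past 1 TPM, summed to 252 and 253 TPM.

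**Figure D1:**
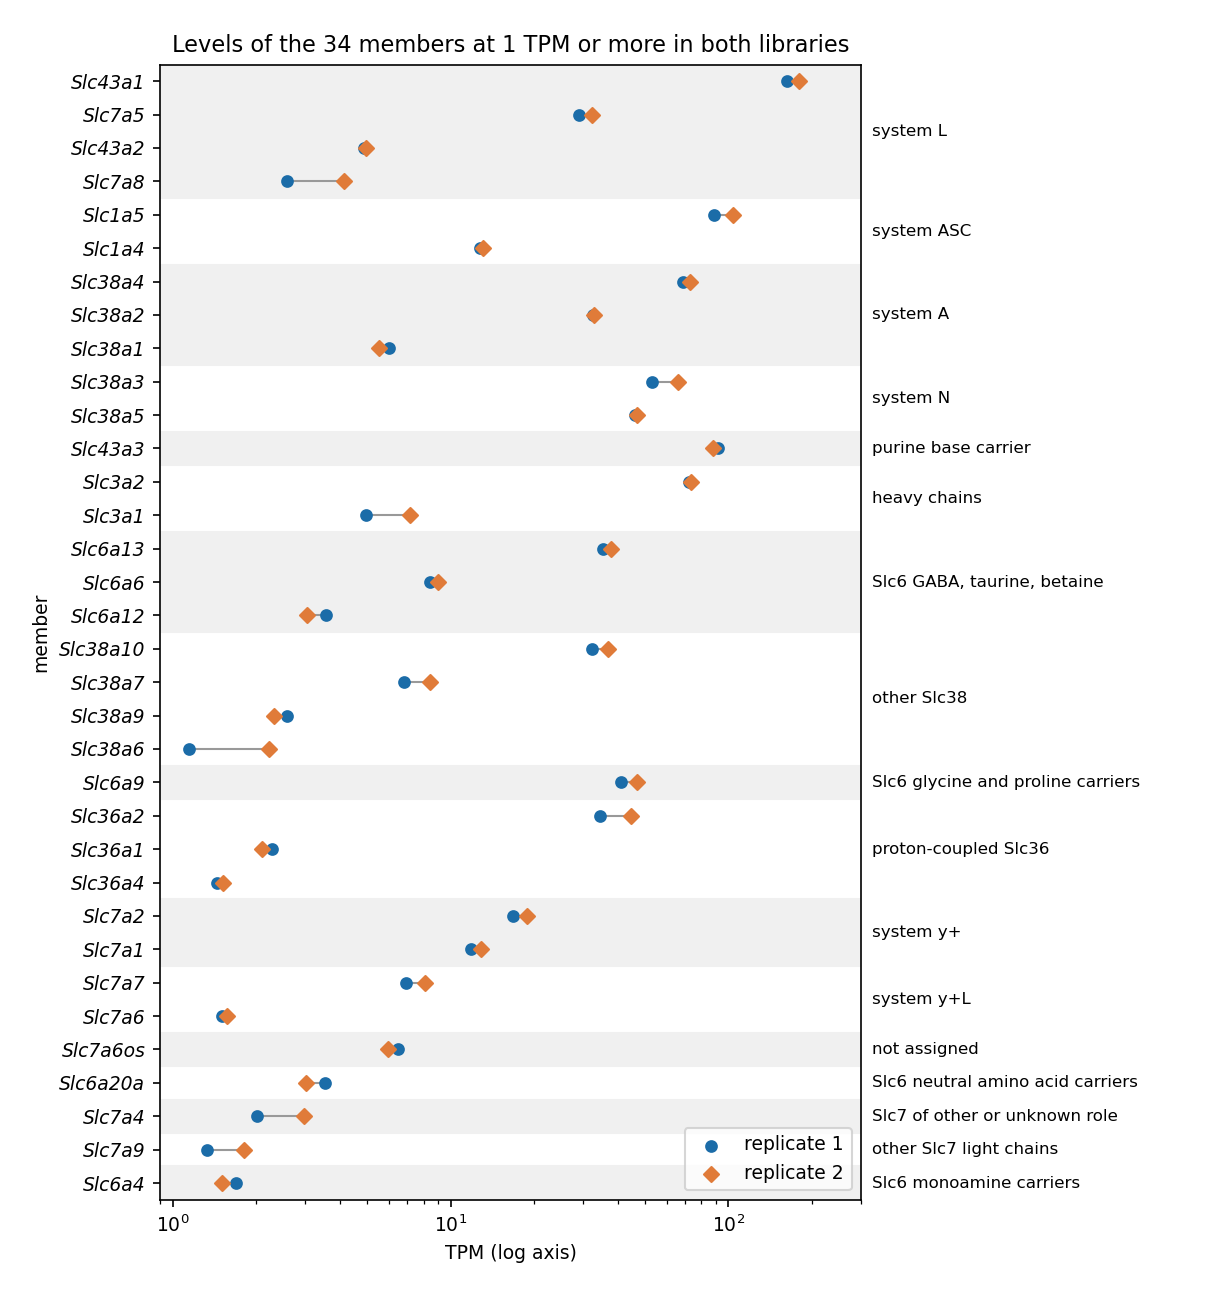
TPM (log axis) of the 34 members that reached 1 TPM in each library, grouped by transport system; circles are replicate 1, diamonds replicate 2, and a line joins the libraries of a gene. Slc43a1 stood highest at 163 and 179 TPM. In many classes, among them systems L, ASC, y+L, Slc36 and the heavy chains, a single member stood well above the others.

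System L held the most of any system, with all 4 carriers above 1 TPM. It summed to 199 TPM in replicate 1 and 220 TPM in replicate 2, which was 22.2% ± 0.153 of the members' total (SD, n = 2). Systems ASC (109 ± 10.7 TPM), A (109 ± 3.10 TPM) and N (106 ± 9.57 TPM) followed, each near 11% of the total, and their libraries overlapped, so these levels did not differ beyond their spread. The 3 highest systems together held 45.3% ± 0.152. System y+ summed to 30.6 ± 1.94 TPM and system y+L to 9.06 ± 0.898 TPM. The lowest were the carriers of anionic glutamate, at 1.52 ± 0.615 TPM over 5 genes, and system xc-, the exchanger of cystine for glutamate, at 0.17 ± 0.085 TPM (all SD, n = 2).

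**Figure D2:**
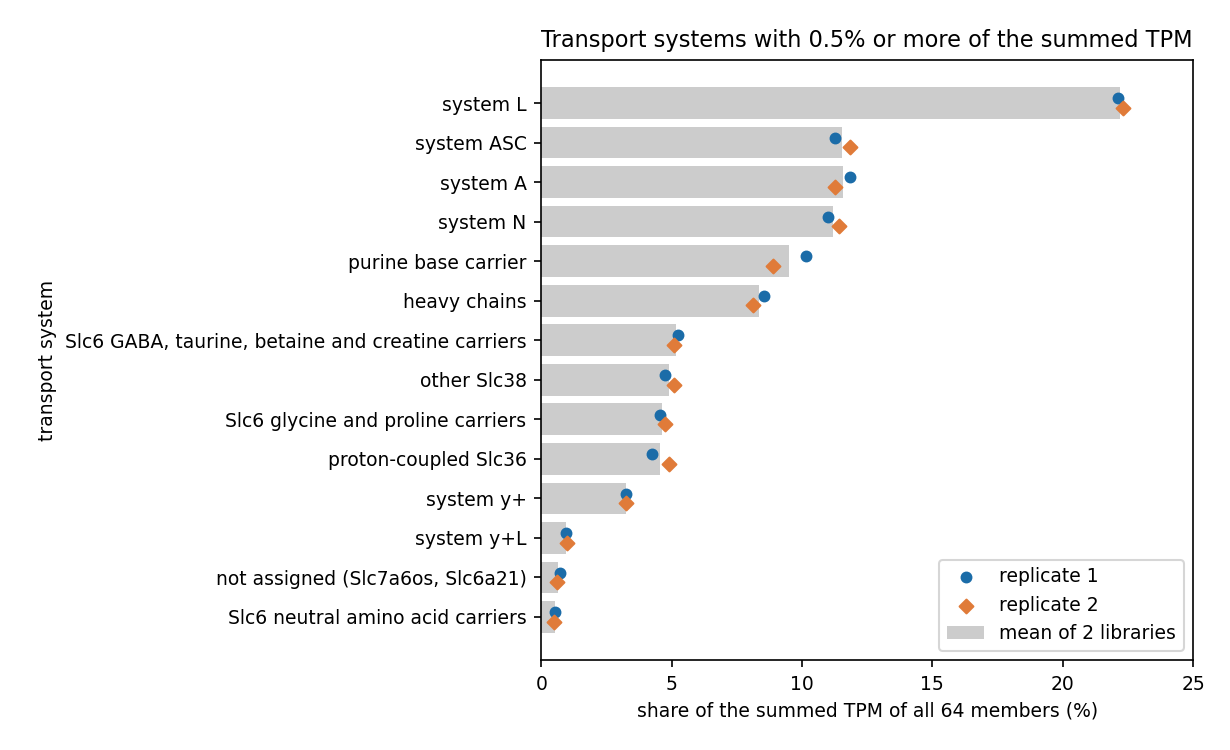
Share of the summed TPM of all 64 members by transport system, for systems at 0.5% or more; bars are the mean of 2 libraries, circles replicate 1 and diamonds replicate 2. System L stood at 22.1% in replicate 1 and 22.3% in replicate 2, and systems ASC, A and N changed order between the libraries.

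Within system L, a carrier that needs no heavy chain dominated. Slc43a1 (LAT3; ENSMUSG00000027075.12, chr2:84838850-84863594, plus strand), a facilitated carrier of leucine, isoleucine, valine, methionine and phenylalanine that has been studied in maturing mouse red cells, had 163 TPM in replicate 1 and 179 TPM in replicate 2. It ranked 504th among protein-coding genes, and both of its libraries lay above those of every other member. Slc7a5 (LAT1; chr8:121881150-121907694, minus strand), the light chain of the main leucine exchanger of dividing cells, had 29.0 and 32.2 TPM. Gm20388, annotated over its whole length of 26545 nt on the opposite strand, had 1.37 and 0.97 TPM. Slc43a2 (LAT4), close kin of Slc43a1, had 4.87 and 4.96 TPM, and Slc7a8 (LAT2), the light chain more usual in epithelia, 2.58 and 4.14 TPM. The level of Slc43a1 was thus 5.59 ± 0.0412 times that of Slc7a5 and 34.8 ± 1.84 times that of Slc43a2 (SD, n = 2).

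Slc43a1 was read as several coding forms. A transcript of 2539 nt held 40.9% and 42.7% of the gene's TPM in replicate 1 and replicate 2, and one of 2487 nt, whose coding sequence is shorter (1770 against 1821 nt), held 32.1% and 31.4%. A coding fragment of 539 nt held 19.5% and 18.0%, although it took only 590 of 14351 counts in replicate 1 and 644 of 17290 in replicate 2, because TPM weights short transcripts up. Without transcripts under 600 nt the gene stood at 131 and 147 TPM, still the highest member in both libraries.

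The remaining gene of the Slc43 family, Slc43a3 (chr2:84936579-84958509, plus strand), lies 73.0 kb from Slc43a1 with 1 protein-coding gene between them. It carries purine bases and not amino acids, and it was kept because the symbol pattern takes it. It had 91.5 TPM in replicate 1 and 87.7 TPM in replicate 2, the third highest of the members, and its libraries overlapped those of Slc1a5. By family, the 3 Slc43 genes held 28.1% ± 0.858 and the 11 Slc38 genes 27.7% ± 0.127 of the total, more than the 21 Slc6 genes with 10.6% ± 0.0558 or the 16 Slc7 genes with 8.98% ± 0.175 (SD, n = 2).

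System ASC rested on Slc1a5 (ASCT2; ENSMUSG00000001918.13, chr7:16781340-16798274, plus strand), the sodium-dependent exchanger of glutamine. It had 88.8 TPM in replicate 1 and 104 TPM in replicate 2. Slc1a4 (ASCT1; chr11:20302180-20332713, minus strand), which exchanges alanine, serine and cysteine, had 12.8 and 13.1 TPM, and the ratio of Slc1a5 to Slc1a4 was 7.43 ± 0.709 (SD, n = 2). Slc1a5 was the only one of the 26 members with several transcripts and 1 TPM or more whose leading transcript is annotated as not coding. A transcript of 2807 nt that keeps intron 7 of a gene of 9 exons held 62.6% and 64.7% of the gene's TPM, a mean of 63.6% ± 1.44 (SD, n = 2). All transcripts annotated with a retained intron together held 76.2% ± 2.57, and the coding form of 2741 nt held 25.1% in replicate 1 and 21.8% in replicate 2, or 22.3 and 22.6 TPM. By this division of the reads, most of the level of the gene was given to RNA that the annotation does not count as coding for the carrier.

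The kept intron is short and is shown with 15 bases of exon on each side because the division of the gene's reads rests on it (GRCm38, chr7:16795938-16796038, plus strand; capitals mark the intron, chr7:16795953-16796023).
Slc1a5 intron 7: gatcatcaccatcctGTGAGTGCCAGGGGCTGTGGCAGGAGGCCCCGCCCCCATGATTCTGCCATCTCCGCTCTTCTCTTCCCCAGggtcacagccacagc
It is 71 nt long, which is not a multiple of 3, and begins with GT and ends with AG like most introns. In GENCODE M21 these transcripts share their other exons apart from 28 nt at the start. The deposited tables, made with release M4, list the coding form at 2741 nt, against 2764 nt in M21, so 23 nt more differ at a place not looked up here. How well so few bases separate the forms was not tested. The gene-level count was whole in both libraries, so it was not shared with another gene.

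System A, the sodium-coupled uptake of small neutral amino acids, was read from all 3 of its genes. Slc38a4 (SNAT4; chr15:96994820-97055956, minus strand), a carrier known from liver and placenta, had 68.4 TPM in replicate 1 and 72.9 TPM in replicate 2. Slc38a2 (SNAT2; chr15:96687392-96699730, minus strand), which many cells raise when amino acids are scarce, had 32.5 and 32.8 TPM. Slc38a1 (SNAT1), its neighbour at a distance of 44.5 kb, had 6.0 and 5.55 TPM. The 3 genes did not overlap in level: Slc38a4 stood at 2.16 ± 0.0788 times Slc38a2, and Slc38a2 at 5.66 ± 0.359 times Slc38a1 (SD, n = 2).

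System N had a more even pair. Slc38a3 (SNAT3; chr9:107650634-107669530, minus strand), a glutamine carrier of adult hepatocytes, had 52.9 TPM in replicate 1 and 65.7 TPM in replicate 2. Slc38a5 (SNAT5; chrX:8271133-8280179, plus strand), which carries glutamine, glycine and serine, had 46.3 and 47.1 TPM. Slc38a3 was above Slc38a5 in both libraries, by 1.27 ± 0.179 times (SD, n = 2). Slc38a3 was itself 1.22-fold higher in replicate 2, beside a median of 1.10-fold in the same direction for the 8 hepatocyte markers.

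Of the 6 other Slc38 genes, 4 passed 1 TPM. Slc38a10 (chr11:120103960-120151346, minus strand), whose product is poorly known, led with 32.4 TPM in replicate 1 and 37.0 TPM in replicate 2. Slc38a7, which exports glutamine and asparagine from lysosomes, had 6.83 and 8.47 TPM. Slc38a9, the lysosomal arginine sensor that acts on mTORC1, had 2.57 and 2.32 TPM. Slc38a6 had 1.15 and 2.22 TPM on 77 and 110 counts, Slc38a11 was under 0.1 TPM and Slc38a8 had no counts.

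The heavy chain Slc3a2 (4F2hc, also called CD98; ENSMUSG00000010095.9, chr19:8706882-8723369, minus strand) had 72.3 TPM in replicate 1 and 73.1 TPM in replicate 2. Its 6 known light chains Slc7a5, Slc7a6, Slc7a7, Slc7a8, Slc7a10 and Slc7a11 summed to 40.8 and 46.9 TPM, most of it Slc7a5. The heavy chain was above the sum of its light chains in both libraries, at 1.77 times in replicate 1 and 1.56 times in replicate 2. The leading transcript of Slc3a2 held 94.4% of its TPM in replicate 1 and 94.1% in replicate 2. Its deposited length is 2572 nt, against 1819 nt in M21, and the effect of this on the ratio was not tested. The other heavy chain, Slc3a1 (rBAT; chr17:85028376-85064236, plus strand), which serves cystine and dibasic amino acid uptake in kidney and gut, had 4.96 and 7.14 TPM. Its partner Slc7a9 had 1.33 and 1.80 TPM, and the second partner Slc7a13 had no counts in replicate 1 and 2 counts in replicate 2, so Slc3a1 stood at 3.83 ± 0.137 times their sum (SD, n = 2). The 4 kidney tubule markers summed to 0.16 TPM in replicate 1 and 0.09 TPM in replicate 2, with 1 of them at 0 in both, while the 4 gut markers summed to 7.92 and 16.6 TPM. The part of gut RNA in the level of Slc3a1 was not tested. Slc3a1 also overlaps Prepl on the opposite strand by 767 nt, and Prepl had 5.48 and 5.55 TPM. No label speaks of strand, so whether reads of such pairs were told apart there is not known.

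Of the 3 genes of system y+, Slc7a2 and Slc7a1 passed 1 TPM. Slc7a2 (CAT-2; ENSMUSG00000031596.11, chr8:40862396-40922308, plus strand) had 16.8 TPM in replicate 1 and 18.9 TPM in replicate 2. Slc7a1 (CAT-1; chr5:148327410-148399904, minus strand), the widespread high-affinity arginine carrier, had 11.9 and 12.9 TPM. Slc7a2 was thus above Slc7a1 in both libraries, by 1.44 ± 0.0322 times (SD, n = 2). The level of Slc7a1 depends on which of its transcripts the reads are given to: one of 1792 nt held 74.2% and 75.3% of the gene's TPM on 628 and 747 counts, and one of 7179 nt held 24.9% and 23.1% on 878 and 961 counts. Slc7a3 had 0.51 and 0.17 TPM.

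Slc7a2 makes 2 carriers that differ in 1 alternative exon. CAT-2A is the low-affinity form known from liver, and CAT-2B is the high-affinity form, closer to CAT-1. The exon pair is shown because the choice between them names the carrier (GRCm38, plus strand; no capitals are used).
Slc7a2 exon of 137 nt, chr8:40908398-40908534: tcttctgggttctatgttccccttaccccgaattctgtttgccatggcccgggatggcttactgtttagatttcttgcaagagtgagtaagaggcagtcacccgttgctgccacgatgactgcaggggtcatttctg
Slc7a2 exon of 140 nt, chr8:40908056-40908195: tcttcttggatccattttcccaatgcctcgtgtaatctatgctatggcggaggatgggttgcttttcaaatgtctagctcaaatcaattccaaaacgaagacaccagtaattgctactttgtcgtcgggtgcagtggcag
Translated in frame, the 140 nt exon matched the same segment of Slc7a1 at 38 of 46 aligned residues and the 137 nt exon at 28 of 46, so the first was taken as the CAT-2B exon and the second as the CAT-2A exon. Of the TPM of transcripts with either exon, those with the CAT-2A exon held 69.1% in replicate 1 and 71.2% in replicate 2. Of the TPM of the whole gene, the longest of them, of 7910 nt, alone held 52.4% and 49.8%, and the leading CAT-2B transcript, of 3677 nt, held 30.3% and 28.3%. By this division of the reads, the liver form was the larger share in both libraries, with the other form present beside it. Reads of the exons themselves were not counted, and how well the reads separate the forms was not tested. The 5 macrophage markers summed to 337 TPM in replicate 1 and 353 TPM in replicate 2, and their part in the CAT-2B share was not tested.

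System y+L, which exports cationic amino acids in exchange for neutral ones, was read mostly from Slc7a7 (chr14:54369442-54417780, minus strand), at 6.92 TPM in replicate 1 and 8.12 TPM in replicate 2. Slc7a6 had 1.5 and 1.57 TPM, and Slc7a7 stood at 4.89 ± 0.395 times Slc7a6 (SD, n = 2). Slc7a7 overlaps Oxa1l on the opposite strand by 232 nt, its counts were not whole, and Oxa1l had 11.4 and 12.5 TPM. Slc7a6os, which lies 2.01 kb from Slc7a6 on the other strand, had 6.46 and 5.97 TPM, above Slc7a6 in both libraries. Slc7a4, an Slc7 gene whose substrate is not known, had 2.01 and 2.96 TPM.

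**Figure D3:**
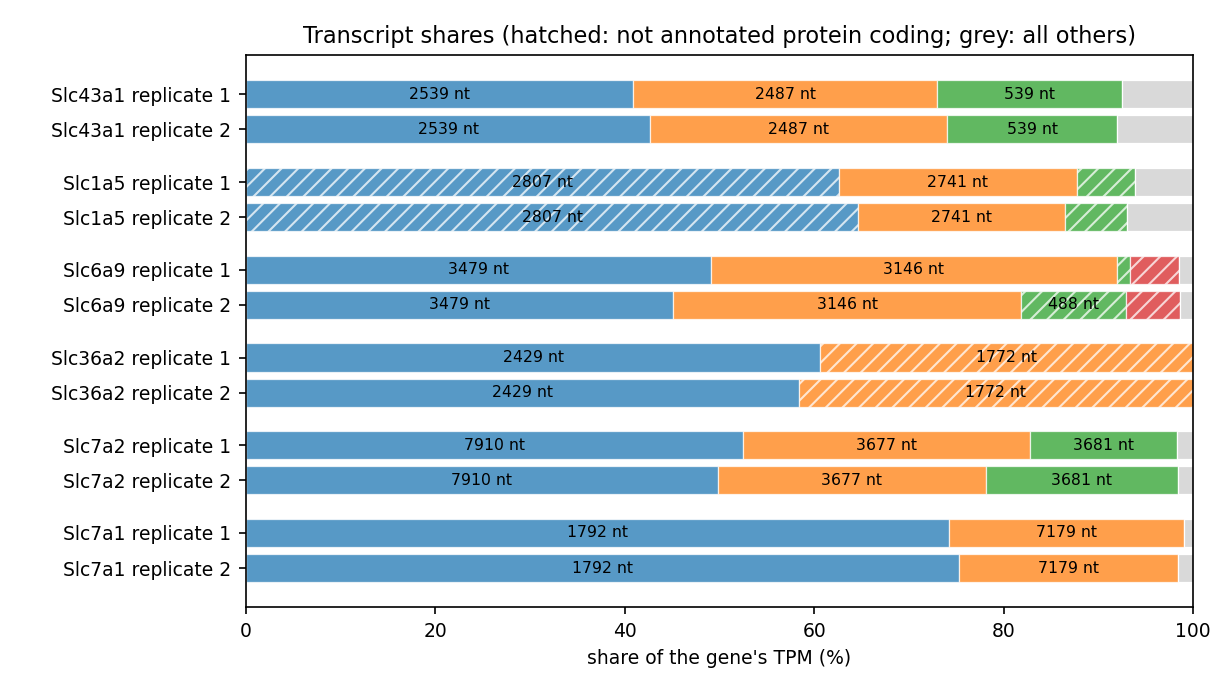
Share of a gene's TPM (%) by transcript in replicate 1 and replicate 2 for 6 members; each colour is a transcript with a mean of 5% or more, with its length in nt where it is wide enough, hatching marks transcripts not annotated as protein coding and grey the rest. The intron-keeping transcript of Slc1a5 (2807 nt) leads its gene at 62.6% and 64.7%, and each gene has the same leading transcript in both libraries.

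Across the 34 members at 1 TPM or more, 8 have 1 transcript and 26 have several. Of the 26, 22 were led by a transcript with 50% or more of the gene's TPM and 8 by one with 90% or more, and the leading transcript was the same in both libraries for all 26. The 4 led by less were Slc43a1, Slc6a9, Slc7a4 and Slc38a6.

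Of the Slc6 carriers of glycine and proline, the one read was Slc6a9 (GlyT1; ENSMUSG00000028542.13, chr4:117834506-117875198, plus strand), the sodium- and chloride-coupled glycine carrier, which in mouse red cell precursors supplies glycine for haem. It had 41.1 TPM in replicate 1 and 46.7 TPM in replicate 2. The nerve tissue carriers of the same group, Slc6a5 for glycine and Slc6a7 for proline, had no counts in either library. Slc6a9 was read from a pair of coding forms with unlike first exons and a coding length of 1899 nt each. The one of 3479 nt held 49.1% and 45.1% of the gene's TPM and the one of 3146 nt held 42.9% and 36.8%, in replicate 1 and replicate 2. A processed transcript of 488 nt held 1.41% in replicate 1 and 11.1% in replicate 2 on 9.49 and 91.4 expected counts. Slc6a9 overlaps B4galt2 and Ccdc24 on the opposite strand, and neither was above 1.13 TPM in either library.

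Among the Slc6 carriers of GABA, taurine, betaine and creatine, 3 of 6 passed 1 TPM. Slc6a13 (GAT2; chr6:121300227-121337733, plus strand), which in mouse liver takes up GABA and taurine, had 35.3 TPM in replicate 1 and 37.8 TPM in replicate 2. Slc6a6, the main taurine carrier, had 8.45 and 9.04 TPM. Slc6a12, the betaine carrier 5.34 kb from Slc6a13, had 3.56 and 3.04 TPM, so that Slc6a13 stood at 11.2 ± 1.78 times its neighbour (SD, n = 2). The creatine carrier Slc6a8 had 0.10 and 0.43 TPM on 13 and 46 counts, and the brain GABA carrier Slc6a11 had 1 count in each library.

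Of the 8 Slc6 carriers of neutral amino acids, known mostly from kidney, gut and brain, 1 passed 1 TPM in both libraries. Slc6a20a, a proline carrier, had 3.54 TPM in replicate 1 and 3.01 TPM in replicate 2, against 0.16 and 0.21 TPM for its neighbour Slc6a20b. These neighbours are close copies, their counts were not whole, and the division between them is uncertain. Slc6a19, the broad neutral carrier of kidney and gut, had 0.91 and 1.37 TPM, led in both libraries by a processed transcript and not by a coding one. Cltrn, which encodes a surface partner of this carrier in kidney, had 1.39 TPM in replicate 1 and 1.13 TPM in replicate 2.

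The monoamine carriers were low. Slc6a4, which takes up serotonin and is carried by platelets, had 1.69 TPM in replicate 1 and 1.51 TPM in replicate 2. The 5 megakaryocyte markers summed to 405 and 402 TPM and the 3 mast cell markers to 3.95 and 3.25 TPM; their part in the level of Slc6a4 was not tested. The dopamine carrier Slc6a3 had 0.56 and 0.58 TPM on 79 and 89 counts, and the noradrenaline carrier Slc6a2 had 1 count in replicate 1 and none in replicate 2. The 6 neuron and adrenal markers summed to 1.80 TPM in replicate 1 and 3.02 TPM in replicate 2.

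The proton-coupled carriers of the Slc36 family sit side by side on chromosome 11. Slc36a2 (PAT2; chr11:55158470-55185077, minus strand), a carrier of glycine, alanine and proline, had 34.6 TPM in replicate 1 and 44.7 TPM in replicate 2. Slc36a3, 6.76 kb away, had 1 count in replicate 1 and none in replicate 2, and Slc36a1, the widespread lysosomal member 19.3 kb away, had 2.27 and 2.10 TPM. The 4th gene, Slc36a4, lies elsewhere and had 1.44 and 1.52 TPM. Slc36a2 was 18.2 ± 4.26 times Slc36a1 (SD, n = 2). A processed transcript of 1772 nt that runs 826 nt past an exon held 39.4% and 41.6% of its TPM, and the coding transcript of 2429 nt held 60.6% and 58.4%.

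**Figure D4:**
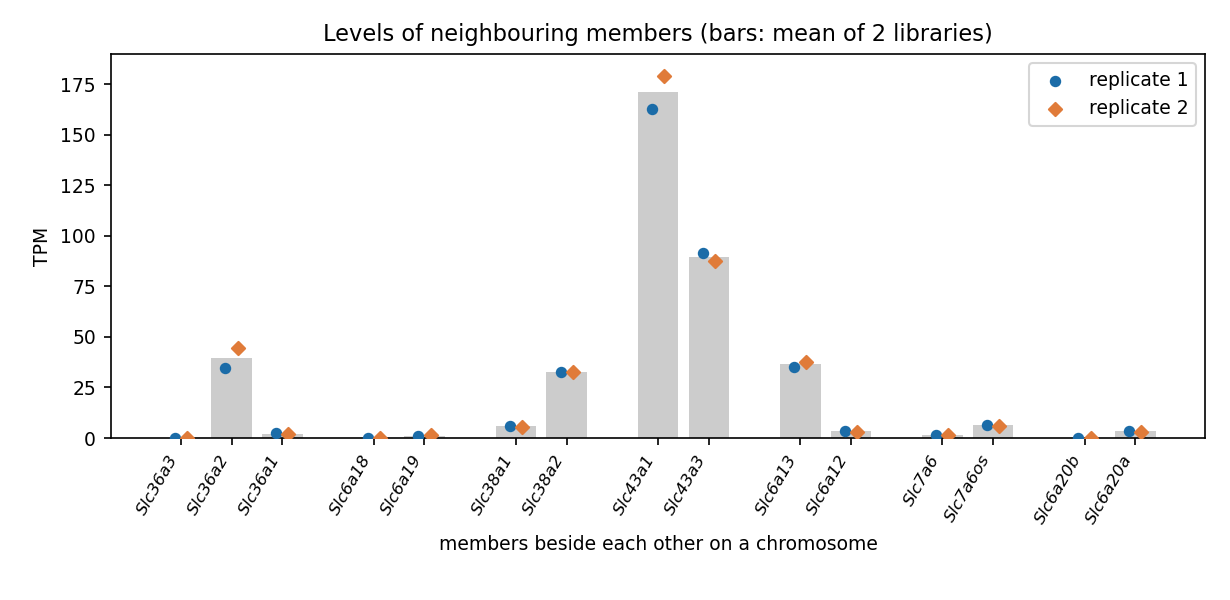
TPM of members that lie within 200 kb of each other on a chromosome, for pairs with a member at a mean of 1 TPM or more; bars are the mean of 2 libraries, circles replicate 1 and diamonds replicate 2, and bars set close together are neighbours. Slc36a2 at 34.6 and 44.7 TPM stands beside Slc36a3 at 0.01 and 0 TPM, whereas Slc43a1 and Slc43a3 both exceed 87 TPM.

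The carriers of anionic glutamate and the cystine exchanger were at the bottom of the range. None of the 5 glutamate carriers passed 1 TPM in both libraries. Slc1a2 (GLT-1), which in adult liver marks cells around the central vein, had 0.68 TPM in replicate 1 and 1.36 TPM in replicate 2. It had 69 and 104 counts, and without transcripts under 600 nt it had 0.68 and 0.8 TPM, below 1 TPM in both libraries. Slc1a3 had 0.16 and 0.41 TPM. Slc1a6 and Slc1a1 were at 0.18 TPM or less and Slc1a7 had no counts. Slc7a11 (xCT), which imports cystine for glutathione and is induced under stress through ATF4, had 0.11 and 0.23 TPM on 25.1 and 42.1 expected counts.

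In all, 8 members had no counts in either library: Slc1a7, Slc6a5, Slc6a7, Slc6a14, Slc6a16, Slc6a21, Slc7a12 and Slc38a8. With a limit of 3 counts per library, a count of 0 allows up to between 0.0141 and 0.0667 TPM, depending on gene length. Another 22 members had counts but did not pass 1 TPM in both libraries. Of these, 12 had a mean count of 10 or more and 10 had less, among them Slc6a15, Slc6a18, Slc7a14 and Slc38a11. The levels of the 10 with a mean count under 10 are near the limit of detection at this depth.

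The deposited levels were set beside those of genes that sense amino acids. Of 21 genes of lysosomal sensing by mTORC1, 19 reached 1 TPM in each library, and their median over the list was 10.8 ± 0.297 TPM (SD, n = 2). The lysosomal scaffold genes Lamtor2, at 94.6 and 86.0 TPM, Lamtor5, at 65.4 and 63.4 TPM, and Lamtor1, at 55.6 and 54.8 TPM, were highest, and the GTPase gene Rragb was lowest at 0.32 and 0.25 TPM. Of 14 genes of the response through GCN2 and ATF4, 13 passed 1 TPM, with a median of 41.4 ± 2.23 TPM. Here Asns, the asparagine synthetase gene, had 306 TPM in replicate 1 and 271 TPM in replicate 2, the serine synthesis genes Psat1 and Phgdh had 227 and 225 TPM and 170 and 156 TPM, and the transcription factor gene Cebpb was lowest at 0.41 and 0.53 TPM. The factor gene Atf4 itself had 120 and 119 TPM. Of 16 other amino acid and peptide carriers and partners found in the tables, 10 passed 1 TPM, with a median of 1.71 ± 0.322 TPM. The highest were Bsg, a partner of monocarboxylate carriers, at 814 and 827 TPM, the aromatic amino acid carrier Slc16a10, at 37.0 and 37.3 TPM, and Arl6ip5, which binds a glutamate carrier, at 31.5 and 30.2 TPM. The vesicular glutamate carrier Slc17a7 had no counts.

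The letters of an ATF4 response core, TGATGCAA or on the other strand TTGCATCA, were looked for in RefSeq promoters of GRCm38.p6, from 250 bases before to 50 after a start. They occurred in 294 of 32851 promoters (0.895%) and in 4 of 67 promoters of the 46 members that matched an entry by symbol. The 4 promoters belong to 3 genes, with those of Slc7a7 sharing 1 match, and the windows are shown because, of the 3, only Slc7a11 holds the core more than once (capitals mark the core; all on the minus strand).
Slc7a11 chr3:50443638-50443694: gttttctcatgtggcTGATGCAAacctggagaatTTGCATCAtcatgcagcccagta
Slc1a4 chr11:20332695-20332732: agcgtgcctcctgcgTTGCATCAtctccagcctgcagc
Slc7a7 chr14:54417923-54417960: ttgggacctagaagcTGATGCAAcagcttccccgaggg
The matches of Slc7a11 begin 66 and 47 bases before its start and that of Slc1a4 begins 4 bases before. The 3 genes differed in level, with Slc7a11 at 0.11 and 0.23 TPM, Slc7a7 at 6.92 and 8.12 TPM and Slc1a4 at 12.8 and 13.1 TPM. None was among the highest members: they ranked 44th, 19th and 15th of the 64. Of the 34 members at 1 TPM or more, 25 had a promoter entry, and the others were not searched. A match is a description of letters and not of binding, which was not measured.

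For the comparison of libraries, TPM + 1 in replicate 1 was divided by that in replicate 2, taken as log2 and shifted so that well-read genes had a median of 0. None of the 46 members with a mean count of 10 or more reached 2-fold, beside 0.597% of all Ensembl genes at that count, and none reached 1.5-fold, beside 1.89% of those genes. Adding 1 shrinks the ratio of genes near or below 1 TPM, so low members can differ more in TPM than these folds show. Slc6a8, at 0.10 TPM in replicate 1 and 0.43 TPM in replicate 2, came to 1.28-fold on this scale. The widest differences among the 34 members at 1 TPM or more were all towards replicate 2: Slc38a6 was 1.48-fold, Slc7a8 1.42-fold and Slc3a1 1.35-fold higher there on that scale. The level of Slc38a6 rests largely on a transcript of 359 nt with 4.77 and 13.3 expected counts, and without transcripts under 600 nt the gene had 0.72 TPM in replicate 1 and 1.11 TPM in replicate 2, so it no longer reached 1 TPM in both. After centring, 15 members were higher in replicate 1 and 31 in replicate 2, and the median log2 ratio was -0.07, against -0.0072 over all genes tested. The authors' deposited TPM intervals of the libraries did not overlap for 12 of the 34 members, beside 25.7% of protein-coding genes at 1 TPM or more. Those intervals cover the estimate within a library and not the spread between pools.

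Replicate 2 also held more RNA of markers of pancreas, skeletal muscle and bile duct. The 5 pancreas markers summed to 13.99 TPM in replicate 1 and 45.4 TPM in replicate 2, with Ins2 at 0.90 and 18.9 TPM. The 4 skeletal muscle markers summed to 105 and 251 TPM, and 3 of them were 2-fold or more higher in replicate 2. The bile duct markers summed to 21.7 and 37.0 TPM, with 2 of 4 past 2-fold. Slc7a8, Slc3a1, Slc38a6 and Slc6a8 were among the 31 of 46 members higher in replicate 2, while 15 were higher in replicate 1. The part of these tissues in the levels of the members was not tested.

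**Figure D5:**
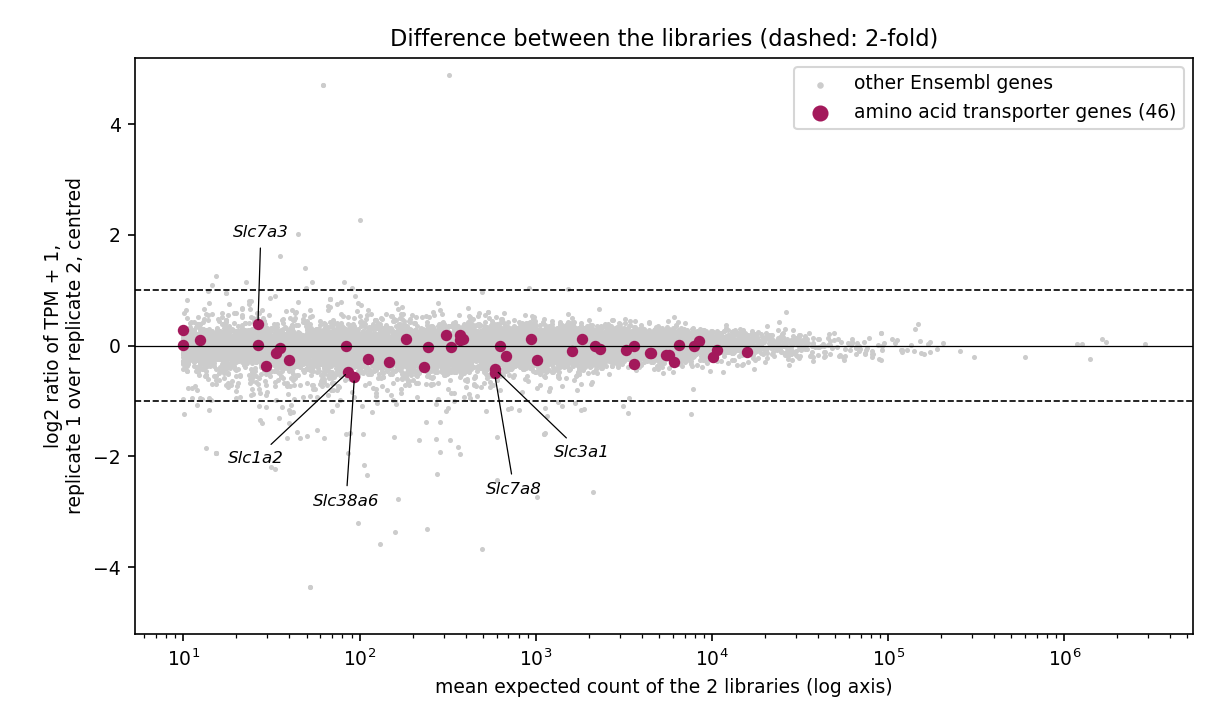
Log2 of TPM + 1 in replicate 1 over that in replicate 2, shifted to a median of 0 among well-read genes, against the mean expected count of the 2 libraries (log axis); coloured points are the 46 members with a mean count of 10 or more, grey points all other Ensembl genes at that count, and dashed lines mark 2-fold. No member passes a dashed line, and the named members lie at the edges of their spread.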

How the data were processed

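Each library came with a gene table and a transcript table, made, per the file headers and an accompanying note, on mm10 with GENCODE M4. The column names are those of RSEM, and the aligner and versions are not given in the sources used here. Expected counts, as the authors deposited them, divide reads shared by transcripts and need not be whole; 26 of the 34 members at 1 TPM or more had whole counts within 0.01. The deposited TPM values are scaled over all rows of a table, and the posterior mean TPM is a second estimate. The deposited interval bounds of TPM (treated as a signal of no stated level) were compared only between libraries. Lengths are those the authors deposited.

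Symbols, biotypes and coordinates came from GENCODE M21 (GRCm38, the build called mm10), matched by ID without version for 42462 of 43346 Ensembl genes. Promoter sequences came from RefSeq (GRCm38.p6). Transport systems were assigned from background knowledge, and members, lists and systems were chosen with earlier results of these data known. Values are given for members with a mean of 5 TPM or more, the highest of each system and the heavy chains; other members named were chosen after their values were seen. Some genes are not reported here by name, and counts and sums still include them. Transcript shares were recomputed from TPM. Libraries were compared as log2(TPM + 1), replicate 1 over replicate 2, centred on genes with a mean count of 100 or more; with 1 library on each side no p-value exists. Tested on simulated data for this comparison (41128 genes, biological coefficient of variation 0.1), it called 89 of 100 genes changed 3-fold, 92 of 100 changed 4-fold and 3 of 16072 unchanged genes. The changed genes were drawn only from those with a mean count of 100 or more, where 34 of the 46 members tested lie. Recovery of changes at lower counts was not tested. Reads carried no molecular identifiers, so limits for a count of 0 cover counting error only. Alternatives used other thresholds, pseudocounts, units and filters, each replicate alone, edgeR 4.0.16 and DESeq2 1.42.0 scaling of counts rounded to whole numbers (R 4.3.3), with python 3.11.15.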

Additional observations from a re-analysis of the deposited data

How the results depend on the processing

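Detection and shares: 34 members passed 1 TPM in both libraries, and 34 to 36 with a single replicate. The count was 38 at 0.5 TPM, 29 at 2 TPM, 37 by posterior mean TPM and 45 at 10 expected counts in both libraries. The members' share of protein-coding TPM (0.107%) was 0.256% by counts and 0.175% without globin genes, and 0.101% to 0.112% with a single replicate. The share of the 3 leading systems (45.3%) was 44.9% by posterior mean TPM, 47.3% by expected counts, 43.8% without transcripts under 600 nt (chosen after seeing the data) and 45.2% to 45.4% with a single replicate. By counts the first 4 systems were L, A, ASC and N. Slc3a2 stood at 1.31 times its light chains by counts and at 1.56 to 1.77 times with a single replicate. With a single replicate, 22 to 23 members were led by a transcript of 50% or more. By counts the Slc1a5 retained-intron transcript held 71.5% and the Slc7a2 CAT-2A exon 81.5% (both chosen after seeing the data); counts are not per length. Past 2-fold between libraries were 3 members with a pseudocount of 0.1 (Slc6a8 higher in replicate 2, Slc6a17 and Slc7a3 higher in replicate 1; all genes 2.64%) and 3 with DESeq2 size factors (Slc1a3 and Slc6a8 higher in replicate 2, Slc7a3 in replicate 1; all genes 4.31%). All of these had a mean under 0.5 TPM. Counts also moved some ratios by over 1.5 times: Slc43a1 to Slc7a5 was 3.50, Slc1a5 to Slc1a4 4.69, Slc7a2 to Slc7a1 2.76, Slc7a7 to Slc7a6 2.76, Slc38a2 to Slc38a1 3.54 and Slc36a2 to Slc36a1 9.72. Single replicates aside, 36 of the other values moved beyond 1 SD of the libraries and 34 did not. None of the recomputed ratios between members turned round, but only chosen pairs were recomputed. By counts the order of some lower systems changed, as with the heavy chains at 7.61% above Slc43a3 at 7.58%.

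No paired analysis was possible because the data hold 1 group of 2 libraries. The limits are those of 2 pools without a second condition: RNA levels say nothing of protein or transport, low members rest on few counts, and the division between near-identical transcripts depends on the authors' quantification.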
